A study of Homo sapiens with 6 samples.

Results

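Serglycin, the syndecans and the glypicans are core proteins of proteoglycans, here taken with the matrix core proteins versican and biglycan. The group holds 10 genes (SRGN, SDC1, SDC2, SDC3, SDC4, GPC1, GPC4, GPC6, VCAN and BGN) of 14884 that the probe annotation names. They were chosen by gene symbol, with measured differences of this same contrast already known, and each is read from its probe set with the highest mean over the arrays. The values of the 10 genes are therefore given as a description, with no p-value. Whether a gene passed the fit over all genes is stated in the same sense, and nothing is read from it. All 10 had a probe set and none was lost to a filter.

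The cells were MDA-MB-231, an established line of triple-negative human breast carcinoma. The study set 3 arrays of control cells against 3 arrays of NR1D1 KO cells. NR1D1 is the gene of REV-ERBα, a nuclear receptor that binds heme and represses transcription in the circadian clock. The cells grew in Dulbecco's modified Eagle's medium with fetal bovine serum. Both groups had been kept with 200 µM hydrogen peroxide for 72 h, so no untreated array stands beside them and a difference present before the peroxide cannot be told apart from one in the response to it. Each array is labelled as a biological replicate. The labels do not say how the knockout was made, what the control cells carry, or whether separate cultures or clones were used, so the p-values measure only the spread between these samples, which may be technical. NR1D1 itself has 0 named probe sets, so its transcript gave no check of the knockout. Array medians lay between 5.18 and 5.22 on the log2 scale, and standard errors of log2 differences had a median of 0.101. Precision is limited by the 6 arrays. In these bulk samples fewer cells of a type and less RNA per cell cannot be told apart.

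Proteoglycans are proteins that carry long sulfated sugar chains, either heparan sulfate or chondroitin and dermatan sulfate. Serglycin is the core protein of secretory granules, best known from blood cells and also made by aggressive breast cancer cells, where it is secreted. Syndecans span the plasma membrane and glypicans are held to it by a lipid anchor. Both bind growth factors and matrix proteins through heparan sulfate and act as co-receptors. Versican and biglycan lie outside the cell and carry chondroitin or dermatan sulfate.

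The promoter of SDC4 is shown because SDC4 is the syndecan with the largest difference, and that of SDC1, which differed little, is shown for comparison. The RefSeq promoter table (GRCh38.p14) held windows for 8 of the 10 genes and none for SRGN and SDC2. Each sequence runs 5′ to 3′ on the strand of the gene and covers the 250 bases before the annotated start, and capitals mark matches to the motifs searched. The SDC4 window is chr20:45348425-45348674 on the minus strand and the SDC1 window chr2:20225476-20225725 on the minus strand, the farther upstream of its 2 annotated starts.
SDC4: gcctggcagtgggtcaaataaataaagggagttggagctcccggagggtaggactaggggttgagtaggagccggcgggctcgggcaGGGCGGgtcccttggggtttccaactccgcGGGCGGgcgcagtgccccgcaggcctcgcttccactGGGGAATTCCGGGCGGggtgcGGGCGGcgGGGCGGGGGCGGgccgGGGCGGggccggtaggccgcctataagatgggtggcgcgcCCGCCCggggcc
SDC1: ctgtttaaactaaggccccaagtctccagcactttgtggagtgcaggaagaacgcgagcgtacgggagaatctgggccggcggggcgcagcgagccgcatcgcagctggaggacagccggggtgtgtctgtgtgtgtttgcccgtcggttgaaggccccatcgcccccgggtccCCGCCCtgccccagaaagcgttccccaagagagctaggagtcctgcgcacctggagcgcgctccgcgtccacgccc

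The SDC4 window held 1 NF-κB site, whose first base is at position -97 from the start, and 8 GC boxes (GGGCGG). A GC box begins directly after the NF-κB site. The SDC1 window shown held 1 GC box, at position -76. Its other window held 1 NF-κB site and 1 GC box. Windows of the remaining genes held 5 GC boxes in SDC3, 5 in BGN, 4 in GPC1, 2 in GPC4, 1 in VCAN and 0 in GPC6. Among 35116 promoter windows of the same length, 9.96% held an NF-κB site and 42.6% a GC box, on either strand. The core of the element that REV-ERBα and ROR receptors bind (AGGTCA, in 12.1% of all windows), the longer form of that element (0.265%), the AP-1 site (TGANTCA, 6.57%) and the E-box (CACGTG, 6.34%) had no match in any window of the 8 genes. Of these windows, that of GPC6 alone held the core of the antioxidant response element (TGACNNNGC, 10.9%) and the TATA box (TATAAA, 10.7%). A match is a description of the letters, and its absence says only that these letters are not in this window.

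SRGN transcripts were far lower on the knockout arrays. SRGN measured 9.69, 9.94 and 9.58 on the control arrays and 6.38, 7.33 and 7.09 on the knockout arrays, in order of replicate number on the log2 scale. The lowest control array lay 2.25 above the highest knockout array. The means were 9.74 ± 0.186 in control and 6.94 ± 0.494 in knockout arrays (SD, n = 3 each). The log2 difference was -2.80, with a standard error of 0.223 in the fit, or 6.96-fold lower. By the size of its difference SRGN ranked 2 among the 14884 genes.

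The knockout arrays were uneven for SRGN, with knockout 1 the lowest of the 3. A larger SD between knockout arrays was found in 120 genes. Leaving out each array in turn gave log2 differences of SRGN from -3.00 to -2.52, so the difference did not rest on 1 array. Its 20 nearest measured coding genes on chromosome 10, 10 on each side, had a median log2 difference of 0.018, with 9 below 0 and 11 above. The called ones, named after their values were seen, were HKDC1 and TSPAN15, lower by log2 differences of -0.67 and -0.94, and TYSND1, higher by 0.33.

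SRGN is also a marker of blood cells, so the other markers of leukocytes were read beside it. Of 15 listed genes 10 were measured, and their summed linear level was 3552 to 3644 on control arrays and 3029 to 3170 on knockout arrays. It was thus lower in the knockout, with 7 of the 10 below 0 and a median log2 difference of -0.24. Of the 10 genes 1 was called, where 9.49% of all genes were called. That gene was CD68, a lysosomal membrane protein gene that many cell types express, at 10.87 ± 0.0323 in control and 10.42 ± 0.126 in knockout arrays. Its adjusted p was 0.0167, and with control replicate 1, 2 or 3 left out 0.05004, 0.0583 or 0.066. Without CD68 the sum was 1658 to 1746 in control and 1689 to 1783 in knockout arrays, and most of it was LAPTM5 at 10.39 and 10.43. The other 8, such as the cytotoxic lymphocyte gene PRF1 and the mast cell gene CPA3, summed to 362 to 378 and 326 to 361. PRF1 measured 5.30 in control and 5.03 in knockout arrays, and CPA3 3.92 and 3.67, beside array medians of 5.18 to 5.22. Without detection calls such dim values cannot be told from background signal. PTPRC, the defining leukocyte surface marker, was not analysed here. The part of leukocyte-marked RNA in the SRGN result was not tested.

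Markers of other cell types were read in the same way. Over all genes 4.74% were called higher and 4.74% lower. At an unadjusted p under 0.05 by limma 11.9% were higher and 10.9% lower. The mesenchymal markers of this line, 4 measured of 5, summed to 5145 to 5470 in control and 5719 to 6012 in knockout arrays on the linear scale, with 1 called higher and 1 lower. VIM, vimentin, was the higher one, at 9.01 in control and 9.35 in knockout arrays. Its adjusted p was 0.0337, and above 0.05 with the block and with each array left out other than knockout replicate 1 (0.0762 to 0.117). CD44 was the lower one, at 9.86 and 9.51. The other two were not called, with AXL, a receptor kinase, at 11.82 and 12.03 and ZEB1, a repressor of epithelial genes, at 8.09 and 8.01. Luminal epithelial markers, 8 measured of 10, summed to 1341 to 1458 in control and 1606 to 1757 in knockout arrays, with 3 called higher and 1 lower, while the estrogen receptor gene ESR1 measured 5.19 in both. Both sums were thus higher in the knockout, with no overlap. A linear sum weighs the brightest genes most, AXL in the mesenchymal list and KRT18 in the luminal one. Of the mesenchymal genes 2 lay above 0 and 2 below, and of the luminal genes 6 above and 2 below. The luminal genes did not move together, and the largest change among the 8 went against their sum. GATA3, the luminal gene called lower, dropped from a mean of 7.48 to 6.75, a difference of -0.73 (limma, adjusted p = 0.00166). The 3 called higher, KRT19, EPCAM and KRT18, differed by 0.41, 0.40 and 0.35. Endothelial markers, 4 measured of 6, had 1 called higher, with sums of 166 to 193 and 189 to 204. Fibroblast markers, 2 measured of 8, had 0 called by limma and 0 at an unadjusted p under 0.05, with sums of 42.1 to 47.2 and 37.4 to 60.5. The part of these markers in the values of the 10 genes was not tested.

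The profile of SRGN over the 6 arrays was closest to those of C3, IL24 and CTSS, by Euclidean distance between values centred on each gene's mean (0.703, 0.796 and 0.916). C3 encodes the central complement component, IL24 a secreted cytokine and CTSS the protease cathepsin S, and their log2 differences were -2.40, -2.37 and -2.21. This distance takes in the difference between the groups, so similar differences follow from how the genes were picked.

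**Figure D1:**
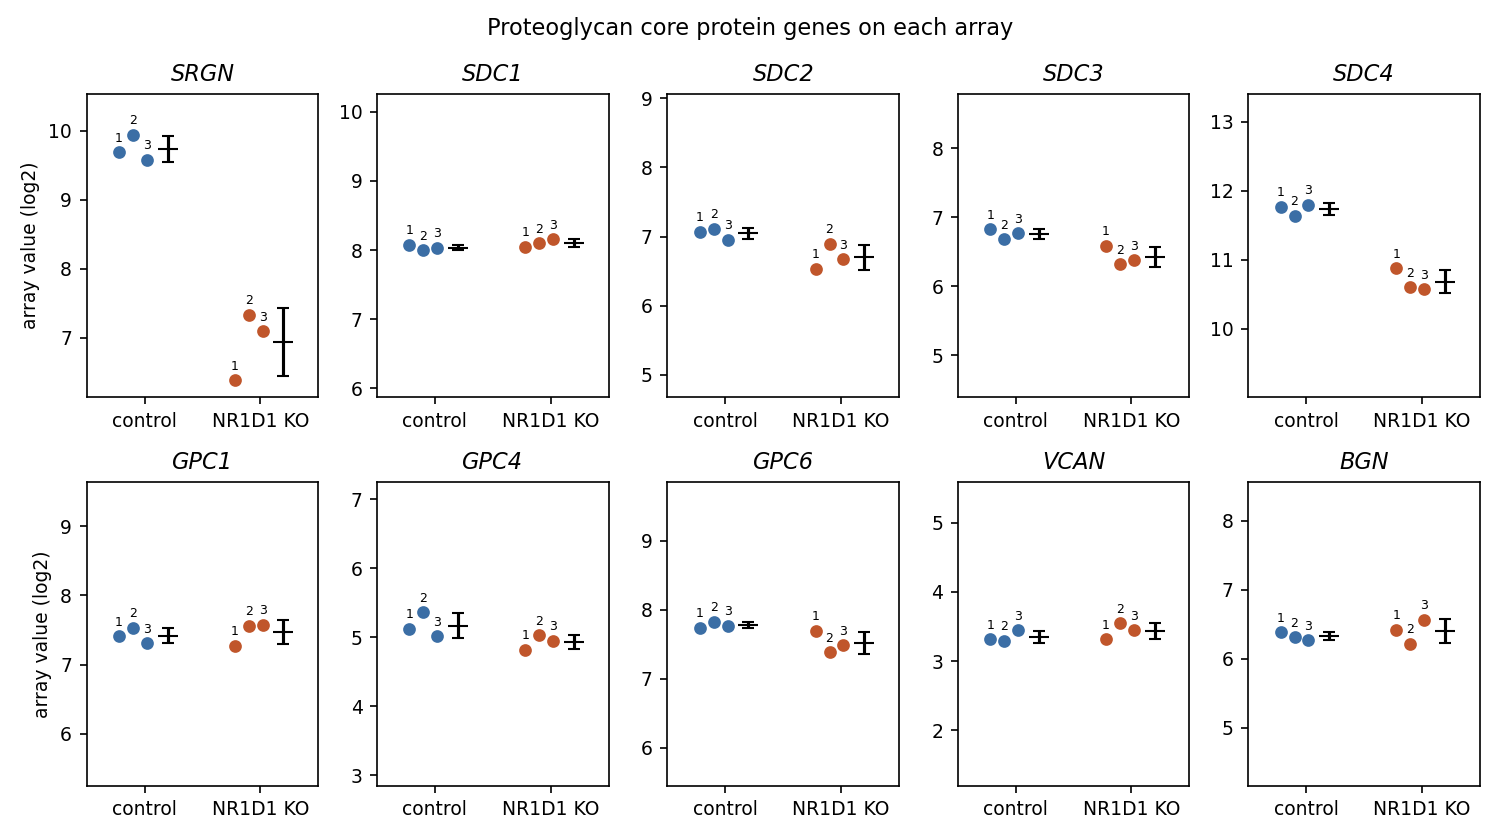
Values of the 10 proteoglycan genes on each array. The vertical axis of each panel is the array value on the log2 scale and spans the same width in every panel. Blue points are the 3 control arrays, orange points the 3 knockout arrays, with replicate numbers, and black bars give the mean ± SD. The knockout points of SRGN (6.38 to 7.33) and SDC4 (10.57 to 10.88) lie well below their control points, and those of SDC1, GPC1, GPC4, VCAN and BGN overlap them.

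Of the 4 syndecans, SDC4, a small syndecan of focal adhesions, had the largest difference between groups. SDC4 measured 11.77, 11.64 and 11.80 on the control arrays and 10.88, 10.60 and 10.57 on the knockout arrays. Every control array was higher than every knockout array, with a gap of 0.755 between the nearest. The means were 11.73 ± 0.0872 and 10.68 ± 0.171 (SD, n = 3 each), a log2 difference of -1.05 with a standard error of 0.105, or 2.07-fold lower.

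Array by array, leaving out each in turn, the difference of SDC4 ran from -1.149 to -0.995. Its 20 neighbours on chromosome 20 had a median log2 difference of 0.033, and 1 of them was called, as higher. The coding genes with the nearest profiles to SDC4 were DNER, ARHGAP42 and PARD6B (distances 0.178, 0.182 and 0.188), with log2 differences of -0.996, -1.01 and -0.927. That these are close to the difference of SDC4 again follows from the choice by distance.

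SDC2 and SDC3, the syndecans of mesenchymal and of neural cells, were lower by smaller amounts and did not pass the fit. SDC3 measured 6.82, 6.68 and 6.77 on control and 6.59, 6.32 and 6.38 on knockout arrays. These groups did not overlap, and the log2 difference was -0.33 with a standard error of 0.0957 (1.26-fold lower). Without knockout replicate 1 it was -0.41 and passed. Its neighbours on chromosome 1 leaned the other way, with a median log2 difference of 0.15 and 14 of 20 above 0.

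SDC2 measured 7.07, 7.11 and 6.95 on control and 6.54, 6.89 and 6.67 on knockout arrays. The groups did not overlap but nearly met, and the log2 difference was -0.34 with a standard error of 0.107 (1.27-fold lower). The nearest profiles to SDC2 were those of VTN, F2RL3 and TP53TG5 (distances 0.0863, 0.1002 and 0.103). Its chromosomal neighbours moved with it. Of the 20 nearest measured coding genes on chromosome 8, 19 were below 0 and 7 called lower, with a median log2 difference of -0.28, close to that of SDC2 itself. The part of this shared shift in the value of SDC2 was not tested.

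SDC1, the main syndecan of epithelia, measured 8.077, 7.995 and 8.034 on control and 8.045, 8.099 and 8.157 on knockout arrays. The groups overlapped, with a log2 difference of 0.065 and a standard error of 0.0772. Its arrays were the closest together of all 10 genes in both groups, with SDs of 0.041 and 0.0563.

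**Figure D2:**
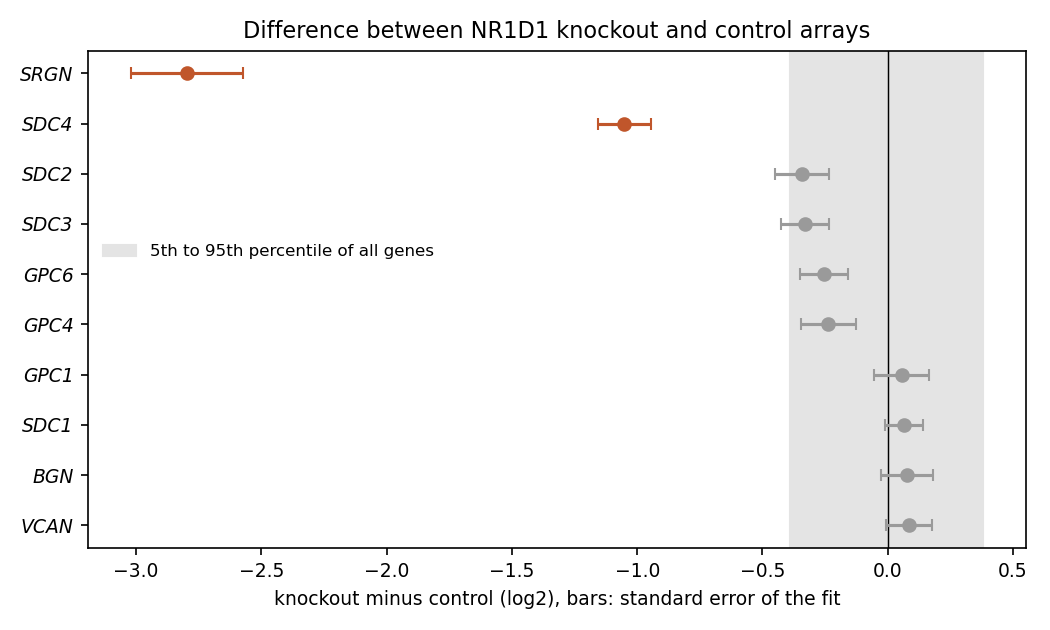
Log2 difference between knockout and control means for each of the 10 genes, with bars for the standard error of the fit over all genes. The horizontal axis is knockout minus control on the log2 scale, orange marks genes past the threshold of that fit, and the grey band runs from the 5th to the 95th percentile of all genes, -0.39 to 0.38. SRGN and SDC4 lie outside the band and the other 8 genes inside it.

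No glypican passed the fit. GPC6 measured 7.74, 7.83 and 7.77 on control and 7.70, 7.39 and 7.49 on knockout arrays. The groups did not overlap, but knockout 1 lay just below the lowest control, and the log2 difference was -0.25 with a standard error of 0.0973. On chromosome 13, 16 of its 20 neighbours were below 0, with a median of -0.11, and 2 were called lower and 1 higher.

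GPC4 measured 5.12, 5.36 and 5.02 on control and 4.82, 5.03 and 4.95 on knockout arrays, with overlap and a log2 difference of -0.24 (standard error 0.109). GPC4 lies on chromosome X, where 16 of its 20 neighbours were below 0 and 9 were called lower, with a median log2 difference of -0.39, larger than that of GPC4. The part of this shift in the value of GPC4 was not tested. GPC1 measured 7.41, 7.53 and 7.31 on control and 7.28, 7.57 and 7.58 on knockout arrays. Its groups overlapped, and the log2 difference was 0.055 with a standard error of 0.109. A second, dimmer probe set of GPC1, whose strand is not known here, gave -0.016.

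The matrix core proteins did not pass either. BGN, biglycan, measured 6.38, 6.31 and 6.27 on control and 6.42, 6.21 and 6.56 on knockout arrays, with overlap and a log2 difference of 0.077 (standard error 0.103). Without knockout replicate 3 that difference was -0.0052. On chromosome X 17 of its 20 neighbours were below 0 and 4 were called lower, with a median of -0.11. VCAN, versican, measured 3.31, 3.29 and 3.45 on control and 3.32, 3.54 and 3.45 on knockout arrays, also with overlap. Its log2 difference was 0.085 with a standard error of 0.0917. A second, still dimmer probe set, at 2.12 to 2.60 on the 6 arrays, gave -0.26. Which strand that probe set reads is not known here, so its opposite sign may not concern the VCAN transcript. VCAN is among the dimmest 25% of genes.

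**Figure D3:**
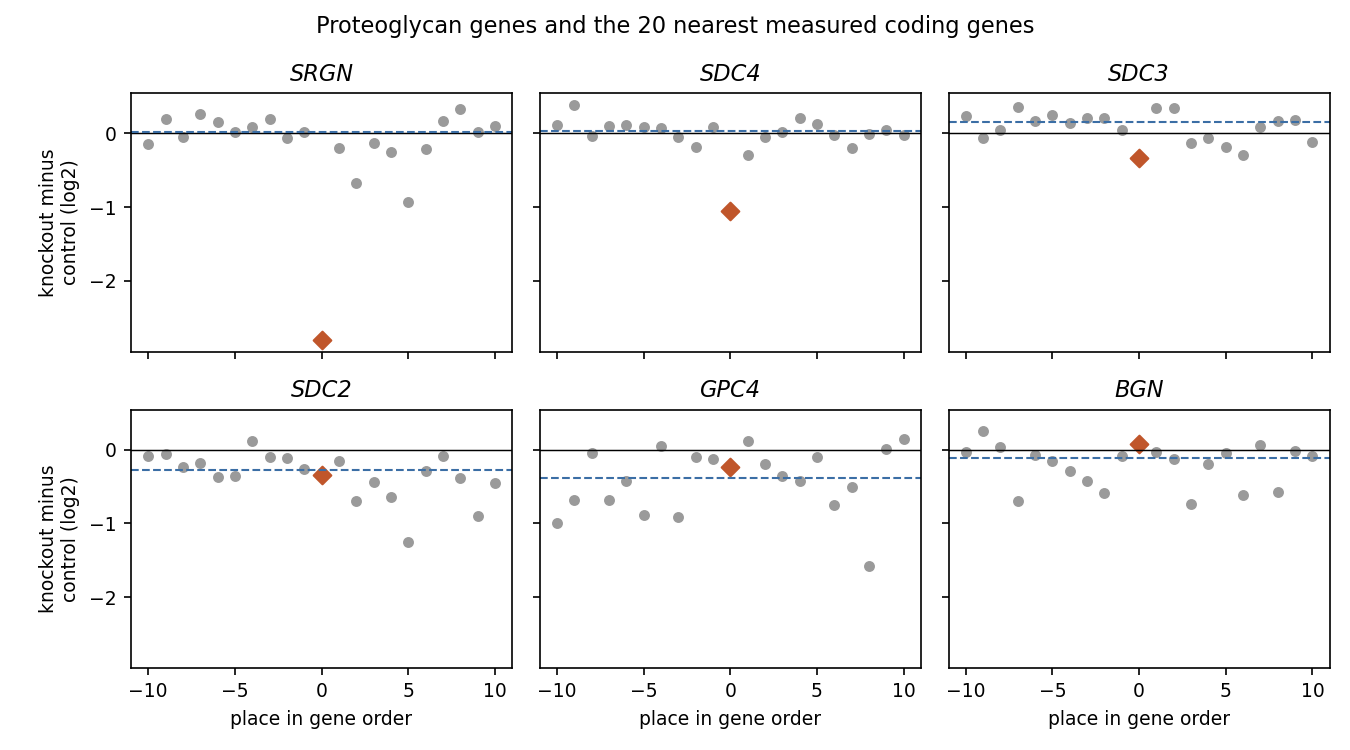
Log2 difference (knockout minus control, vertical axis) of 6 of the genes (orange diamonds) and of the 20 nearest measured coding genes (grey points) by place in gene order (horizontal axis). The dashed blue line is the median of the neighbours. SRGN and SDC4 lie apart from neighbours with medians of 0.018 and 0.033, while SDC2 lies among neighbours with a median of -0.28 and GPC4 among neighbours with a median of -0.39.

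Counted over the 10 genes, 2 were called lower (SRGN and SDC4) and 0 higher at an adjusted p of 0.05 in the fit over all genes, where 4.74% of all genes were called lower, 4.74% higher and 9.49% in either direction (1412 genes). That count was 789, 859 and 723 without control replicate 1, 2 or 3, and 813 without knockout replicate 2. At an unadjusted p under 0.05 in the same limma fit 5 were lower and 0 higher, where 10.9% of all genes were lower and 11.9% higher. The groups did not overlap for 5 genes, all 5 lower in the knockout (SRGN, SDC2, SDC3, SDC4 and GPC6), against 28.7% of all genes. The median log2 difference was -0.25, with 6 genes below 0 and 4 above, and over all genes it was 0.0039. Since the genes were chosen with this contrast known, these counts are a description. For 9 of the 10 the SD was larger between knockout than between control arrays, as it was for 56.9% of all genes. Knockout 1 was the lowest knockout array for 6 of the 10 genes and the highest for 3 (SDC3, SDC4 and GPC6), where over all genes it was lowest for 37.3% and highest for 33.9%.

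Other core proteins went both ways. Of 40 listed genes 32 were measured, of which 1 was called higher and 3 lower. That is 12.5%, against 9.49% of all genes, with a median log2 difference of 0.013. FMOD, the small leucine-rich matrix proteoglycan fibromodulin, rose from 4.82, 5.03 and 5.13 on control to 5.82, 6.03 and 6.18 on knockout arrays. That is a log2 difference of 1.02 with a standard error of 0.12 (limma, adjusted p = 0.00168), and the groups did not overlap. THBD, the anticoagulant receptor thrombomodulin, which can carry chondroitin sulfate, fell by 0.86 on the log2 scale (standard error 0.155, adjusted p = 0.0117).

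CSPG4, a membrane chondroitin sulfate proteoglycan, fell by 0.62 (adjusted p = 0.0195). The adjusted p was 0.0667 with control replicate 1 left out, 0.0535 with control replicate 2 and 0.0503 with knockout replicate 2 left out, and 0.0572 with the replicate number as a block, each above 0.05. CD44, the hyaluronan receptor, some forms of which carry heparan sulfate, fell by 0.35 (adjusted p = 0.0324), and missed the threshold with any 1 array left out (0.052 to 0.112) and with the block (0.0734). The glypicans GPC2, GPC3 and GPC5 were measured and not called.

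Enzymes that build, sulfate or trim heparan sulfate, the chain of syndecans and glypicans, showed 1 gene higher and 2 lower among 24 measured of 25. That is 12.5%, against 9.49% of all genes, with a median log2 difference of -0.044. HS3ST3B1, a heparan sulfate 3-O-sulfotransferase that adds a rare sulfate used by specific protein ligands, rose. It measured 7.86, 7.89 and 7.68 on control and 9.39, 9.18 and 9.19 on knockout arrays. These groups lay far apart, with a log2 difference of 1.44 and a standard error of 0.097, or 2.71-fold (limma, adjusted p = 0.000114). Its close paralog HS3ST3A1, named here after its values were seen because probes of similar genes can share signal, differed by -0.0082. That paralog was much dimmer, at 4.58 in control and 4.57 in knockout arrays.

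The lower genes were HPSE and EXT1. HPSE, the heparanase that cleaves heparan sulfate chains, fell by 0.52 on the log2 scale (standard error 0.0948, adjusted p = 0.0119), and missed the threshold without control replicate 3 (0.054). EXT1, a subunit of the polymerase that extends the chain, fell by 0.43 (standard error 0.0798, adjusted p = 0.0126), but was above 0.05 with control replicate 1 (0.0532), control replicate 3 (0.0575) or knockout replicate 2 (0.0506) left out.

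Enzymes of chondroitin and dermatan sulfate, the chains of serglycin, versican and biglycan, gave 3 higher and 2 lower of 16 measured. That is 31.2%, against 9.49% of all genes, with a median log2 difference of -0.027. UST, the uronyl 2-O-sulfotransferase, rose from 5.27, 5.50 and 5.40 on control to 6.994, 6.759 and 6.996 on knockout arrays. The groups did not overlap, and the log2 difference was 1.52 with a standard error of 0.101, or 2.87-fold (limma, adjusted p = 0.000114). CSGALNACT1, which starts chondroitin chains by adding the first N-acetylgalactosamine, fell by 0.76 (standard error 0.105, adjusted p = 0.00341).

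The other 3 calls of this list were smaller or less steady. CHSY3, a chondroitin synthase, measured 4.24, 3.66 and 3.55 on control and 4.40, 4.56 and 4.48 on knockout arrays (adjusted p = 0.0435), so control 1 stood close to the knockout arrays, and it missed the threshold in 5 of the 6 fits with 1 array left out (0.0899 to 0.131, the exception being control replicate 1) and with the block (0.066). CHST7, a chondroitin 6-sulfotransferase, fell by 0.41 (adjusted p = 0.0287). It missed the threshold with the block (0.066) and with 1 array left out other than control replicate 1 (0.0524 to 0.107). CHST3, of the same activity and outside the rule for named genes, rose by 0.34 (adjusted p = 0.0356). Its adjusted p was above 0.05 with the block (0.0785) and with any 1 array left out (0.0629 to 0.133).

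Enzymes of the linker that joins either chain to its core protein gave 0 calls among the 3 measured of 7 listed, and 1 lower and 0 higher at an unadjusted p under 0.05 by limma, the single tool run (10.9% and 11.9% of all genes). XYLT1, a xylosyltransferase that starts the linker, measured 5.42 ± 0.171 in control and 5.16 ± 0.0878 in knockout arrays (n = 3 each, adjusted p = 0.18), and PXYLP1, a phosphatase of the linker xylose, differed by -0.11. Genes that supply sugar nucleotides and sulfate gave 0 calls among 5 measured of 11, and 2 lower and 0 higher without adjustment, against the same shares of all genes. These were PAPSS2, which makes the sulfate donor, and UGDH, which makes UDP-glucuronic acid, at log2 differences of -0.28 and -0.25 (adjusted p = 0.0765 and 0.111). With a robust prior fitted to the trend of the variance both passed (0.0186 and 0.0332), and PAPSS2 also without the dimmest 25% of genes (0.0427).

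Lysosomal degradation of the chains, 6 genes measured of 13 listed, had 2 called, both lower, where 9.49% of all genes were called. SGSH, the N-sulfoglucosamine sulfohydrolase of heparan sulfate breakdown, fell by 0.61 on the log2 scale (standard error 0.0813, adjusted p = 0.00276). IDS, the iduronate 2-sulfatase, fell by 0.44 (adjusted p = 0.0215), and lies on chromosome X among 20 neighbours of which 19 were below 0, with a median of -0.14. It missed the threshold without any 1 control array or without knockout replicate 2 or 3 (0.0535 to 0.0813).

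Of 15 genes listed for shedding and release, which cut core proteins from the cell surface, 6 were measured. Of these 1 was called, where 9.49% of all genes were called. MMP14, a membrane metalloproteinase that can cleave SDC1, fell by 0.43 (adjusted p = 0.0243), among neighbours on chromosome 14 of which 18 of 20 were below 0, with a median of -0.28. Its adjusted p was 0.0833 or 0.0942 with control replicate 1 or 3 left out, 0.0718 or 0.0696 with knockout replicate 2 or 3 left out, and 0.0534 with the block, and each of these settings leaves 0 calls in the list. ADAM10 and ADAM17, which shed syndecans and were read after their values were seen, differed by -0.20 and -0.046 and were not called.

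Partners of the syndecan tail, 5 measured of 11 listed, had 3 called, 2 lower and 1 higher, where 9.49% of all genes were called. CASK, a scaffold kinase that binds the tail through its PDZ domain, fell from 10.23, 10.17 and 10.20 on control to 9.44, 9.52 and 9.40 on knockout arrays (log2 difference -0.74, standard error 0.0776, adjusted p = 0.000924), with the groups well apart. SDCBP, syntenin, fell by 0.41 (adjusted p = 0.0418). Centring arrays on their medians gave 0.0557, leaving out control replicate 2 or 3 gave 0.129 or 0.133, and leaving out knockout replicate 1 or 3 gave 0.109 or 0.105, each above 0.05. TIAM1, an exchange factor for Rac, rose by 0.46 (adjusted p = 0.0317), and missed the threshold with the block (0.0734) and without each array other than control replicate 2 (0.0641 to 0.11).

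Ligands that bind heparan sulfate, and their receptors, had 4 genes higher and 2 lower among 25 measured of 30. That is 24%, against 9.49% of all genes, with a median log2 difference of 0.019. TNC, the matrix glycoprotein tenascin C, which binds heparan sulfate, rose from 6.52, 6.49 and 6.51 on control to 7.94, 8.04 and 8.22 on knockout arrays (log2 difference 1.56, standard error 0.0913, adjusted p = 8.1e-05). On chromosome 9, 16 of its 20 neighbours were above 0 and 6 were called higher, with a median of 0.20. FN1, fibronectin, which SDC4 binds at focal adhesions, rose by 0.83 (adjusted p = 0.00102). Of its 20 neighbours on chromosome 2, 16 were above 0 and 2 called higher, with a median of 0.072.

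HBEGF, the heparin-binding growth factor of the EGF family, fell by 0.89 on the log2 scale (standard error 0.0893, adjusted p = 0.000747), and its neighbours had a median of 0.0031. BMP4, a heparan sulfate binding morphogen, fell by 0.70 (adjusted p = 0.00249), among neighbours on chromosome 14 of which 15 of 20 were below 0, with a median of -0.28. The other two called genes, VEGFA and PTN, were outside the rule and were higher by 0.66 and 0.64 (adjusted p = 0.00155 and 0.0266). VEGFA, the vascular endothelial growth factor, passed in all 13 alternatives. PTN, pleiotrophin, was above 0.05 with each array left out other than control replicate 2 (0.0511 to 0.0811). The fibroblast growth factor receptors FGFR1, FGFR2, FGFR3 and FGFR4 were measured and not called.

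**Figure D4:**
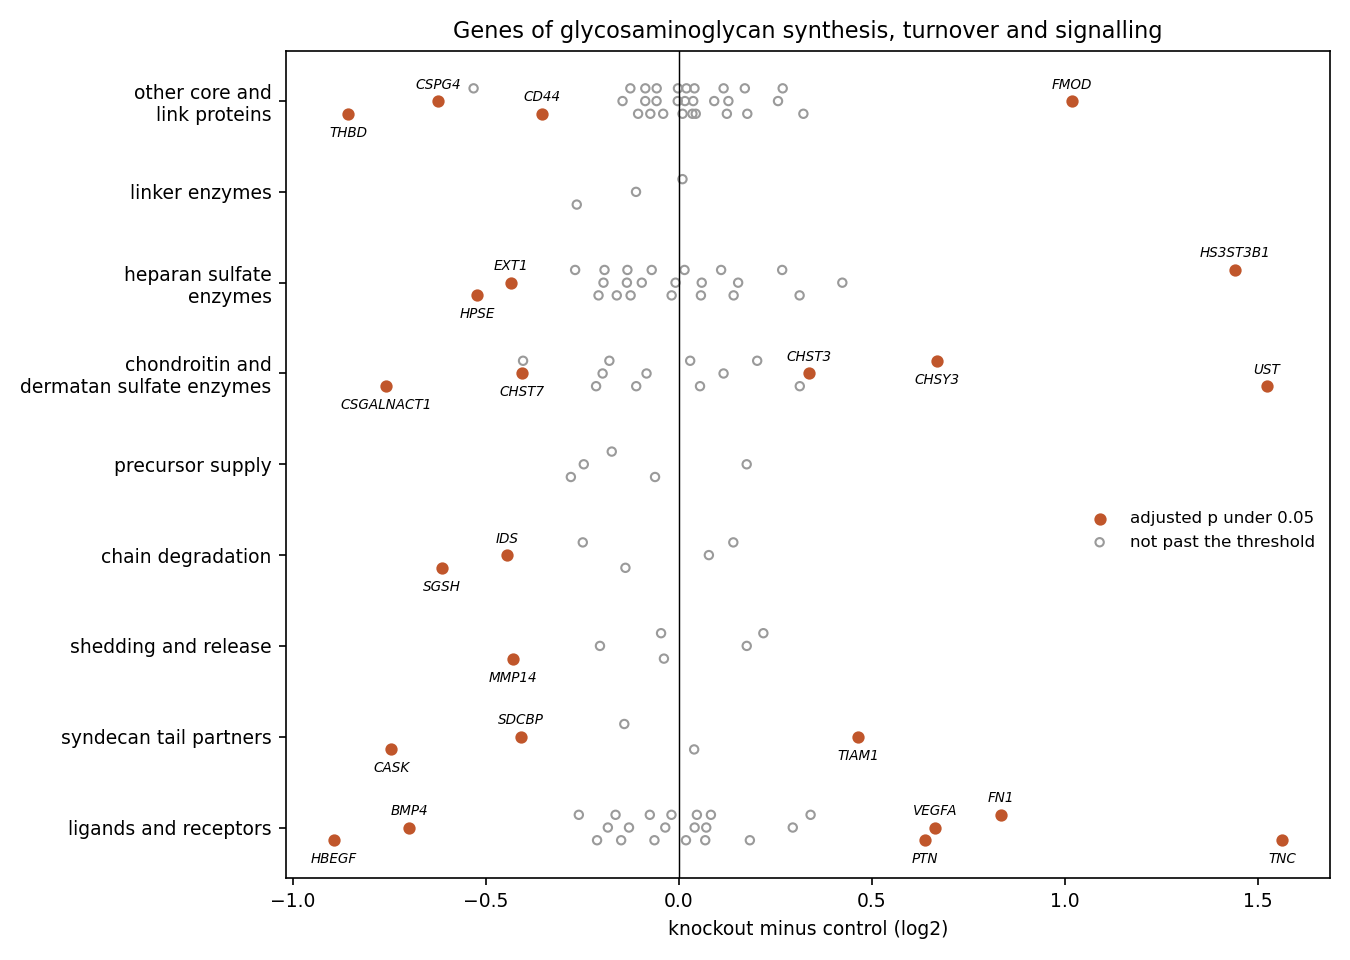
Log2 difference (knockout minus control, horizontal axis) of each measured gene of the 9 lists, 1 row per list. Filled orange points passed an adjusted p of 0.05 and are named, open grey points did not. UST at 1.52, HS3ST3B1 at 1.44 and TNC at 1.56 lie farthest to the right, and HBEGF at -0.89 and THBD at -0.86 farthest to the left.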

How the data were processed

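Total RNA was amplified with a whole-transcript kit for GeneChip arrays, per the labels. The authors deposited 1 value per probe set and array, between 1.16 and 13.7, which were taken as log2 values from that range. On another scale every fold would change. How arrays were scanned, normalized and summarized is not given in the sources used here. No detection calls were used and no dim genes were removed. The platform annotation named 16098 of 53617 probe sets, all matched by gene identifier to RefSeq. The probe set with the highest mean stood for a gene.

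Knockout and control were compared over 14884 genes by limma (version 3.58.1, R 4.3.3) with lmFit and eBayes, two-sided. The p-values were adjusted over the whole table by Benjamini and Hochberg's method, with 0.05 as the threshold. The fit was tested on simulated data. The 10 genes and the lists were chosen with earlier results of these data known. Each list contributes by name at most 4 called genes, those of largest change, or at most 2 of lowest p if it has no call. The nearest profiles to the 3 most changed of the 10 genes are also named. Marker genes, the other glypicans, the FGF receptors, CHST3, VEGFA and PTN, and genes said to be read after their values were seen, are named outside this rule. Promoters are from RefSeq (GRCh38.p14), searched in Python 3.11.15. Alternatives are given in the closing section.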

Additional observations from a re-analysis of the deposited data

How the results depend on the processing

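There were 13 alternatives: quantile normalization again, centring on array medians, the mean of a gene's probe sets, no genes of the dimmest 25%, a robust prior with a trend, weighted arrays, the replicate number as a block, and each of the 6 arrays left out. The 10 genes were chosen with this contrast known, so their passing is again given as a description. SRGN and SDC4 passed in all 13 alternatives, at log2 differences of -3.00 to -2.52 and -1.149 to -0.995. SDC3 passed in 4 (no dim genes, robust prior, weighted arrays, without knockout replicate 1), and no other of the 10 genes in any. VCAN took the opposite sign with the mean of its probe sets (-0.086), which takes in the dimmer one of unknown strand. BGN did so without knockout replicate 3 (-0.0052).

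Without the dimmest genes the calls over all genes rose as well, to 1771 of 11163. In that fit they were 7 of 20 in other core proteins, 5 of 15 in heparan sulfate enzymes and 1 of 5 in precursor supply. The robust prior gave 1953 calls among all 14884 genes. It gave 5 of 24 in heparan sulfate enzymes, 2 of 5 in precursor supply and 2 of 6 in shedding. With 1 array left out, the calls ran from 723 to 1049 over all genes, 2 to 3 in other core proteins, 1 to 3 in heparan sulfate enzymes, 2 to 4 in chondroitin and dermatan sulfate enzymes, 1 to 2 in degradation, 0 to 1 in shedding and 1 to 2 in tail partners. The alternatives for CHST3, VEGFA, PTN, CD68 and VIM were added after seeing the data. The cause of these changes was not tested, beyond the fewer arrays or genes in the fit.

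Deviations of same-numbered arrays from their group means correlated at 0.0547, 0.0681 and -0.106. The labels do not say whether same-numbered samples were handled together, and these values cannot settle it. The replicate block gave 1050 calls over all genes, 2 in other core proteins, 3 in chondroitin and dermatan sulfate enzymes and 0 in shedding, and SRGN and SDC4 passed.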
